A study of Mus musculus with 2 samples.

Results

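The cells described here were the late primitive erythroid cells of the host in mouse chimeras, 866 of the 9252 cells of the tdTom- library and of 18233 cells in both libraries. A host cell was taken when the embryonic globin transcripts Hba-x, Hbb-bh1 and Hbb-y together made up at least 2% of its spliced UMIs and Hbb-y alone at least 0.5%. A UMI is a molecular tag that counts 1 captured transcript, and spliced UMIs come from molecules without intron sequence. The 3 globin values therefore chose the cells and are given only as a description. The cells were 9.36% of the host library (95% exact binomial interval 8.77 to 9.97%).

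The chimeras were made to compare Gata1-null cells with wildtype cells in 1 embryo, since Gata1, on chromosome X, encodes the transcription factor that directs red cell maturation. Male embryonic stem cells, derived from E3.5 blastocysts of a cross of ROSA26tdTomato with wildtype C57BL/6 mice, carried a 38 bp frameshift mutation in exon 4 of Gata1 and were injected into wildtype C57BL/6 blastocysts, also of E3.5. 6 embryos were pooled at about E8.5 (the label of the tdTom- library reads E8.6) and sorted into tdTom+ cells, all descended from 1 mutant stem cell clone, and tdTom- wildtype host cells. Each fraction gave 1 10x Genomics v3 library, with 157174026 spliced UMIs in 9252 host cells and 167940767 in 8981 tdTom+ cells. The median per cell was 15996 UMIs in the host and 17598 in the tdTom+ library, and 18 barcodes occurred in both libraries, 2 of them in the late primitive cells.

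With 1 library per fraction there was no replicate and no test of a difference between the fractions or between kinds of cell, because cells of 1 library are not replicates. Levels are given as UMIs of a gene per 1000000 summed spliced UMIs of a group (CPM), and differences as log2 ratios of CPM with a 95% interval that covers counting error only. A gene counted as higher or lower when it differed by at least 2-fold and had at least 100 UMIs in the 2 groups together. These libraries read transcript ends, so CPM values of different genes compare numbers of captured ends and were not scaled by length.

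Primitive erythroid cells are the first red cells of the embryo. They arise in the yolk sac from mesoderm, enter the circulation while still nucleated and mature there as a nearly synchronous wave. As they mature they switch between embryonic globin genes of the beta-like cluster, with Hbb-bh1 used earlier than Hbb-y, and build up heme and the membrane skeleton.

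The globin markers were used by the rule and cannot check the label. Of the markers fixed for the label, that left Alas2, the erythroid enzyme that starts heme synthesis, which was detected in 839 cells, while 27 had no UMI of it. Klf1, an erythroid transcription factor, was missing from 30 cells, Gata1 from 111, Tfrc, the transferrin receptor, from 39, and Slc4a1, the band 3 anion exchanger of the red cell membrane, from 160. Depth limits these counts. The cells held 705 to 65868 spliced UMIs (median 19643.5) and a median of 3590.5 detected genes. Thinned to 3000 UMIs a cell, with 8 cells too shallow, Alas2 was seen in 54.9% and Slc4a1 in 32.6% of the cells, against 0.691% and 0.778% of host neural cells, which should lack both. Their median depths before thinning were 19643.5 and 16508 UMIs, and unthinned Alas2 was seen in 96.9% and Slc4a1 in 81.5% of the late primitive cells. Globin transcripts of all 10 globin genes made up 0.0884% of the UMIs of the neural cells, which is taken as the background. Neural cells failed the rule, had at least 5 UMIs of neural markers with at least 3 of those genes detected, and had no UMI of Klf1 or Gata1. That choice left out cells with some erythroid RNA, so the background, and free RNA estimated from these cells, may be too low.

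Markers of other cell types were present in some of the cells. Of the 866, 109 (12.6%) were called doublets by Scrublet, against 5.60% of the host library, and their median depth was 28909 UMIs against 19309 for the other 757. At least 3 UMIs of neural, cardiac, visceral endoderm and mesoderm markers together were found in 231 cells, and at least 3 of megakaryocyte markers in 138. Of the 757 cells not called doublets, 4 had at least 3 of the 591 visceral endoderm UMIs, and 1 cell held 436 of them. Summed over the list, cardiac markers reached 201 CPM and megakaryocyte markers 58.5 CPM, while myeloid markers reached 0.941 CPM with Ptprc, Tyrobp and Lyz2 at 0. The counts of genes in each comparison are given below with and without the doublets.

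The composition of the globins was uneven. The embryonic globins made up 10.8% of all spliced UMIs of the cells, and 2.54 to 26.2% per cell with a median of 10.6%. Hba-x, the embryonic alpha-like chain called zeta, ranged from 1.04 to 12.3% (median 5.76%), Hbb-bh1, an early embryonic beta-like chain, from 0.382 to 6.36% (median 2.81%), and Hbb-y, the later embryonic beta-like chain called epsilon-y, from 0.5 to 12.7% (median 1.72%). Hba-x was the most abundant embryonic globin in 850 cells, Hbb-y in 14 and Hbb-bh1 in 2. The rule fixed the lower end of Hbb-y and of the sum, so these ranges are in part set by it.

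The adult globins were lower and were not used to choose the cells. Hba-a1, an adult alpha globin, ranged from 0.0215 to 1.46% of UMIs per cell (median 0.424%) and was present in every cell. Its near-identical copy Hba-a2 had a median of 0.127%, with 2 cells at 0. The adult beta globin Hbb-bs had a median of 0.0221% and no UMI in 160 cells, and its copy Hbb-bt was at 0 in 421. Counting can split reads between such copies, so the split of Hba-a1 from Hba-a2 and of Hbb-bs from Hbb-bt is uncertain. Hbb-bh2 was at 0 in 651 cells and Hbq1b in 448. Hba-x exceeded the adult alpha globins 10.0 to 1 over the summed UMIs.

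**Figure D1:**
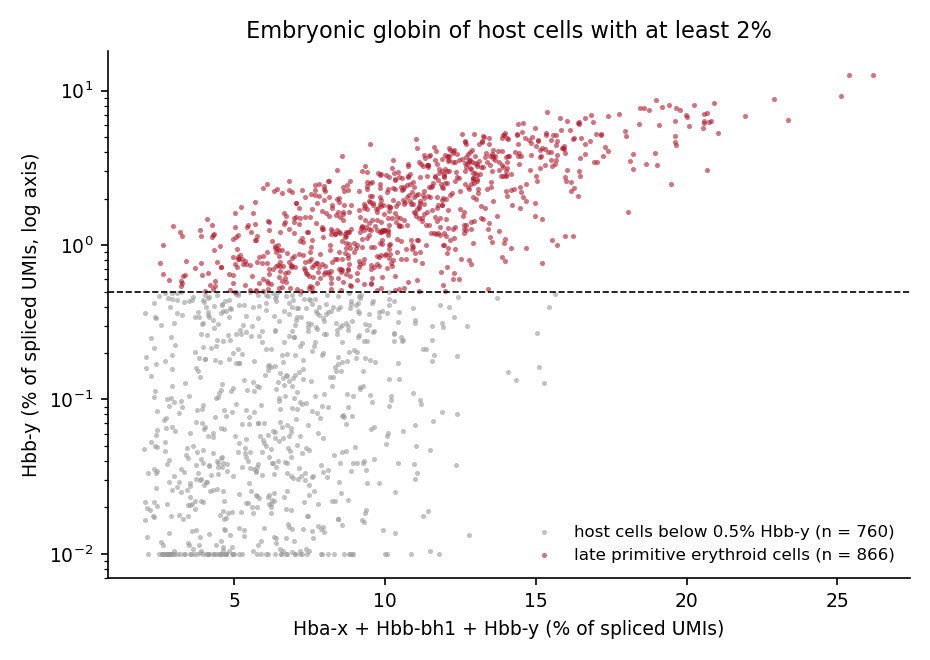
Each point is a host cell with at least 2% embryonic globin, placed by its summed Hba-x, Hbb-bh1 and Hbb-y (horizontal, % of spliced UMIs) and by its Hbb-y (vertical, % of spliced UMIs, log axis, values under 0.01 drawn at 0.01). The 866 red cells lie on or above the dashed line at 0.5% Hbb-y and the 760 grey cells below it, with no gap between them.

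The threshold cut a continuous range of cells. Of 1626 host cells with at least 2% embryonic globin, 760 lay below 0.5% Hbb-y. The 56 cells just inside (0.5 to 0.6% Hbb-y) held 4.48% Hba-x and 2.30% Hbb-bh1, and the 72 cells just outside (0.4 to 0.5%) held 3.64% and 2.02%. Slc4a1 stood at 116 CPM just inside and 80.3 CPM just outside, Alas2 at 230 and 195, Gata1 at 130 and 96.7, and Kit, a receptor of blood progenitors, at 5.00 and 9.48.

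In the genome the globin genes lie in 2 clusters (GRCm38 throughout, GENCODE M21 gene bounds). Hbb-y (chr7:103851749-103853216), Hbb-bh1 (chr7:103841637-103843164), Hbb-bs (chr7:103826534-103828096) and Hbb-bt (chr7:103812524-103813996) lie on the minus strand of chromosome 7. Hba-x (chr11:32276400-32278116), Hba-a1 (chr11:32283511-32284465) and Hba-a2 (chr11:32296489-32297298) lie on the plus strand of chromosome 11. Alas2 (chrX:150547375-150570638, plus strand) and Gata1 (chrX:7959260-7978071, minus strand) lie on chromosome X.

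The proximal promoters of 4 genes that were high in these cells are shown because GATA factors, Klf1 and NF-Y are known to bind the letters marked in them. Each sequence is the 200 bases before the start of the RefSeq transcript, read 5′ to 3′ on the strand of the gene from RefSeq on GRCm38.p6. Some GENCODE models start inside these windows. Capitals mark matches on either strand to GATA letters (AGATAA, with T also allowed as the first letter and G as the last), to CACCC and to CCAAT.
Hbb-y, chr7:103853208-103853407, minus strand: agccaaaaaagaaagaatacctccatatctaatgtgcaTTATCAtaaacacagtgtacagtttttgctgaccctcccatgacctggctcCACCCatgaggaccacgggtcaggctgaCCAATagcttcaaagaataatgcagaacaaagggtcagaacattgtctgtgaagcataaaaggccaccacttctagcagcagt
Hba-x, chr11:32276400-32276599, plus strand: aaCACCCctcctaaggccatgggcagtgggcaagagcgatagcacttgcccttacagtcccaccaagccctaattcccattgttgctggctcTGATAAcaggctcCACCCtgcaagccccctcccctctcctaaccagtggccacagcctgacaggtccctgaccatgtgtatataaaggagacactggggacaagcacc
Hba-a1, chr11:32283472-32283671, plus strand: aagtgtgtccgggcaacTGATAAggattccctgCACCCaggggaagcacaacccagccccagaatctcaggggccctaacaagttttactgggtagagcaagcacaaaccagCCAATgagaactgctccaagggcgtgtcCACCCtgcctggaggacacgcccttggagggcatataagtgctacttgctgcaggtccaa
Alas2, chrX:150547217-150547416, plus strand: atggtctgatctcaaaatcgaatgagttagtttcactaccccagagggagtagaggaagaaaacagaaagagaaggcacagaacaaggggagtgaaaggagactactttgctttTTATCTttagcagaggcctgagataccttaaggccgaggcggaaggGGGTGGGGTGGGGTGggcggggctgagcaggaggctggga

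These 4 windows held GATA letters and CACCC. Among 5 other promoters of globin and erythroid genes that were looked up, Hba-a2 and Hbb-bs held both, Hbb-bt and Gata1 held no GATA letters and Hemgn held no CACCC in the 250 bases before the start. In Hbb-y the GATA letters lay 162 to 157 bases before the start, CACCC 111 to 107 and CCAAT 83 to 79. In Hba-x GATA letters lay 108 to 103 bases before the start and CACCC 95 to 91, and in Alas2 GATA letters lay 86 to 81 bases before the start with 3 CACCC matches nearer to it. Among 32851 RefSeq promoters, taken as the 250 bases before the start, 26.5% held GATA letters, 52.0% CACCC, 33.8% CCAAT and 11.8% both GATA letters and CACCC. A match is a description of the letters and not of a bound site. The 4 printed genes were not the 4 highest of those looked up, since Hba-a2 and Hbb-bs were expressed above Alas2. That all 4 held both GATA letters and CACCC is thus no result about expression. Hbb-bh1 and Slc4a1 were not among the promoter sequences at hand, so their windows were not searched.

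The first comparison asked how the late primitive cells differed from less mature cells of the same lineage in the same library. The early erythroid cells were the 574 host cells with at least 3 Klf1 UMIs that failed the rule. Beside Hbb-y, which the rule used, the late cells had more of the membrane transporters Slc4a1 and Aqp3 and of Hemgn, a nuclear protein of maturing erythroid cells, and less of the progenitor genes Myb and Fli1. Of 8275 genes, 13 were at least 2-fold higher (0.157%) and 59 at least 2-fold lower (0.713%), with a median log2 ratio of -0.13 over all genes. With doublets left out of both groups, 13 of 7500 were higher (0.173%) and 54 lower (0.72%), with 10 higher and 21 lower genes in common with the first count. Of the 574 early cells, 230 had at least 3 UMIs of neural, cardiac, visceral endoderm and mesoderm markers together. When such cells were also left out of both groups, 6 of 6915 genes were higher and 23 lower. Only 5 higher and 9 lower genes were then in common with the first count.

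Among the globins, Hbb-y stood at 22243 CPM in the late and 1376 CPM in the early cells, a log2 ratio of 4.01. Hba-x (57818 against 37666 CPM, log2 0.62) and Hbb-bh1 (27454 against 21179 CPM, log2 0.37) differed less. All 3 were used by the rule and support nothing further. The adult alpha globins Hba-a1 (4393 against 2653 CPM, log2 0.73) and Hba-a2 (1389 against 794 CPM, log2 0.81) were higher by more than Hbb-bs (584 against 464 CPM, log2 0.33, interval 0.29 to 0.38). None of the 6 measured adult and other globins reached 2-fold, and their median log2 ratio was 0.31.

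Genes of heme synthesis moved little. None of 16 measured genes passed 2-fold, and the median log2 ratio was 0.25 against -0.13 for all genes. Alas2 was at 276 CPM in the late and 184 CPM in the early cells (log2 0.58, interval 0.51 to 0.65). Fech, which inserts iron into heme (log2 0.41), and Fam210b, a mitochondrial protein of erythroid iron import (0.40), were also above the early cells by less than 2-fold, whereas Alas1, the housekeeping form of the first enzyme, had a log2 ratio of -0.67 on 113 UMIs. In iron handling, 1 of 13 genes was lower and none higher, with a median of 0.06. The gene past the threshold was Hmox1, which breaks heme down, at 4.21 against 8.58 CPM (log2 -1.03). Slc25a37, the mitochondrial iron importer mitoferrin, was at 470 against 313 CPM (log2 0.59) and Tfrc at 248 against 192 CPM (log2 0.37).

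Of 23 membrane and skeleton genes, 1 was higher and none lower, with a median log2 ratio of 0.37. That gene was Slc4a1, at 155 CPM in the late and 62.2 CPM in the early cells (log2 1.32, interval 1.21 to 1.43). Kel (log2 0.89) and Rhag (0.83), which carry blood group antigens, lay below 2-fold, and Cd47 was on the other side of zero (-0.34). Aqp3, a water and glycerol channel outside that list, rose from 1.81 to 5.76 CPM (log2 1.67, on 128 UMIs), and the value was 1.65 without doublets.

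Of 17 erythroid transcription factors, 1 was higher and none lower, with a median of 0.07. Hemgn was at 109 against 49.7 CPM (log2 1.13, interval 1.00 to 1.26). Gata1 was at 116 CPM in the late and 128 CPM in the early cells (log2 -0.14, interval -0.24 to -0.05), and Tal1, its partner in transcription complexes, had a log2 ratio of 0.06 (interval -0.02 to 0.14). Klf1 had a log2 ratio of -0.07, but the early cells were chosen on it. Lyl1 (0.54) and Lmo2 (-0.46) lay on opposite sides of zero without reaching 2-fold. The Gata1 interval thus lay far from that of Slc4a1.

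Of 9 measured progenitor genes, 2 passed 2-fold and both were lower, with a median log2 ratio of -0.54. Fli1, an ETS factor of endothelium and megakaryocytes, had 27 UMIs in the late and 83 in the early cells (log2 -2.06), and Myb, a factor of proliferating progenitors, 50 and 93 (log2 -1.34). Kit (log2 -0.93), Runx1 (-0.65) and Itga2b (-0.54) did not pass. Without doublets 5 of these genes kept enough UMIs, Myb (log2 -1.38) and Kit (-1.22) passed 2-fold, and Fli1 was no longer measured. The doublet share was 12.6% in the late and 83 of 574 in the early cells, and the part of doublets in the values for Fli1 was not tested.

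Of the other lists, 1 of 21 metabolic and antioxidant enzymes was higher, namely Pklr, the red cell pyruvate kinase (log2 1.08), and Bpgm, which makes 2,3-bisphosphoglycerate, had a log2 ratio of 0.60. No gene passed 2-fold among 11 of organelle clearance (median 0.01), 9 of erythropoietin and cytokine signalling (median 0.03), 8 of polyamine, folate and nucleotide import (median -0.08), 7 stress and immediate early genes (median -0.09) and 7 cycle inhibitors (median -0.04). Without doublets 1 of 7 cycle inhibitors was lower, namely Cdkn1c (13.4 against 33.5 CPM, log2 -1.32). Epor, the erythropoietin receptor, was at 77.3 and 76.6 CPM (log2 0.01, interval -0.11 to 0.13), while Csf2rb, the common beta chain of cytokine receptors, had a log2 ratio of 0.63. None of 40 S phase genes and none of 51 G2 and M phase genes passed, with medians of -0.11 and -0.08. The proliferation marker Mki67 was seen in 62.8% of late and 61.4% of early cells thinned to 3000 UMIs.

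Markers of other cell types differed too. Rab27b, 1 of 2 measured megakaryocyte markers, was lower (log2 -2.33), as were Plvap (-1.95) and Kdr (-1.32) of 3 endothelial markers. Apoa1, 1 of 3 visceral endoderm markers, was higher, with 154 against 24 UMIs (log2 2.24). None of 4 neural, 5 cardiac or 3 mesoderm markers passed, and no myeloid marker had enough UMIs. Acta1 (log2 2.73) and Myh7 (1.51), which are muscle genes, were among the 13 higher genes and had too few UMIs to be measured once doublets were left out. Outside the lists, Cfap57 (11.1 against 4.66 CPM), Dydc1 (log2 1.14), Gm42749 (1.10), Lmx1a (1.09) and Ap1s3 (1.07) completed the 13. Lyve1, a hyaluronan receptor of endothelium, was lowest, with 3 against 132 UMIs (log2 -5.90, interval -8.20 to -4.32), and Ctla2a (-2.17), Ecscr (-2.06) and Ifitm3 (-1.51) were also lower. Without doublets Lyve1 was no longer measured and Ifitm3 was at log2 -2.59. Plvap and Kdr also had too few UMIs then, while Rab27b stayed at log2 -2.25. All 3 visceral endoderm markers were higher without doublets, Apoa1 at log2 2.60 and Rbp4 at 1.99, but 436 of the 591 UMIs of the list came from the 1 late cell named above.

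MURK genes, for multiple rate kinetics, are a list that the study drew up on erythroid cells of a separate embryo atlas. Its genes had a steeper slope of unspliced against spliced counts in the latest erythroid population than in the one before. Their mean spliced counts were also highest in that latest population. Of the 89 genes, 87 were measured, 5 were higher and none lower, with a median log2 ratio of 0.29. The 5 were Hbb-y, Aqp3, Slc4a1, Hemgn and Pklr, of which Hbb-y was used by the rule. Without doublets 6 of 86 were higher.

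**Figure D2:**
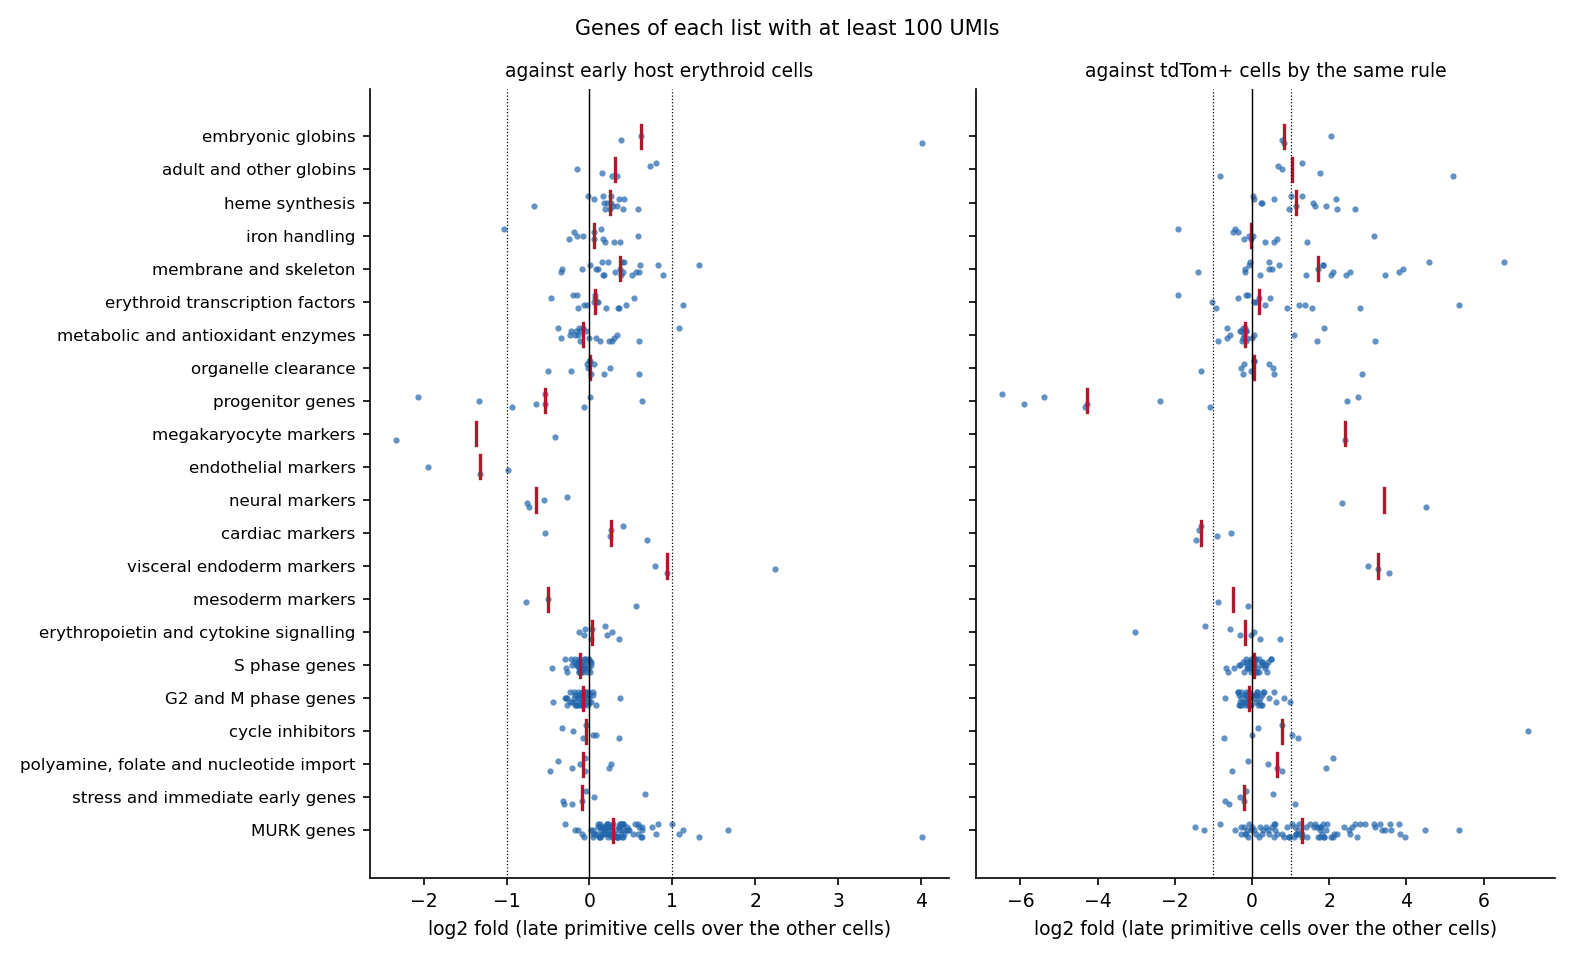
Each point is a gene with at least 100 UMIs, placed by its log2 ratio of CPM in the late primitive cells over early host erythroid cells (left) or over tdTom+ cells that met the same rule (right), with red bars at the median of each list and dotted lines at 2-fold. On the left most lists lie within 2-fold, and on the right the membrane list has a median of 1.70 and the progenitor genes one of -4.28.

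The second comparison followed genes along the range of globin among the 866 cells. They were ordered by summed embryonic globin and split into 4 bins of 217, 217, 216 and 216 cells, Q1 with the least and Q4 with the most, so that the 3 embryonic globins rise by construction. Q4 against Q1 gave 26 of 5888 genes at least 2-fold higher (0.442%) and 474 lower (8.05%). Markers of other cell types moved with this order. Of the 109 doublets 96 lay in Q1 and 7, 3 and 3 in the next ones, and the summed neural markers went from 256 CPM through 25.6 and 15.0 to 15.2 CPM. Both measured neural, all 4 cardiac, all 3 visceral endoderm and both mesoderm markers were among the 474 lower genes.

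**Figure D3:**
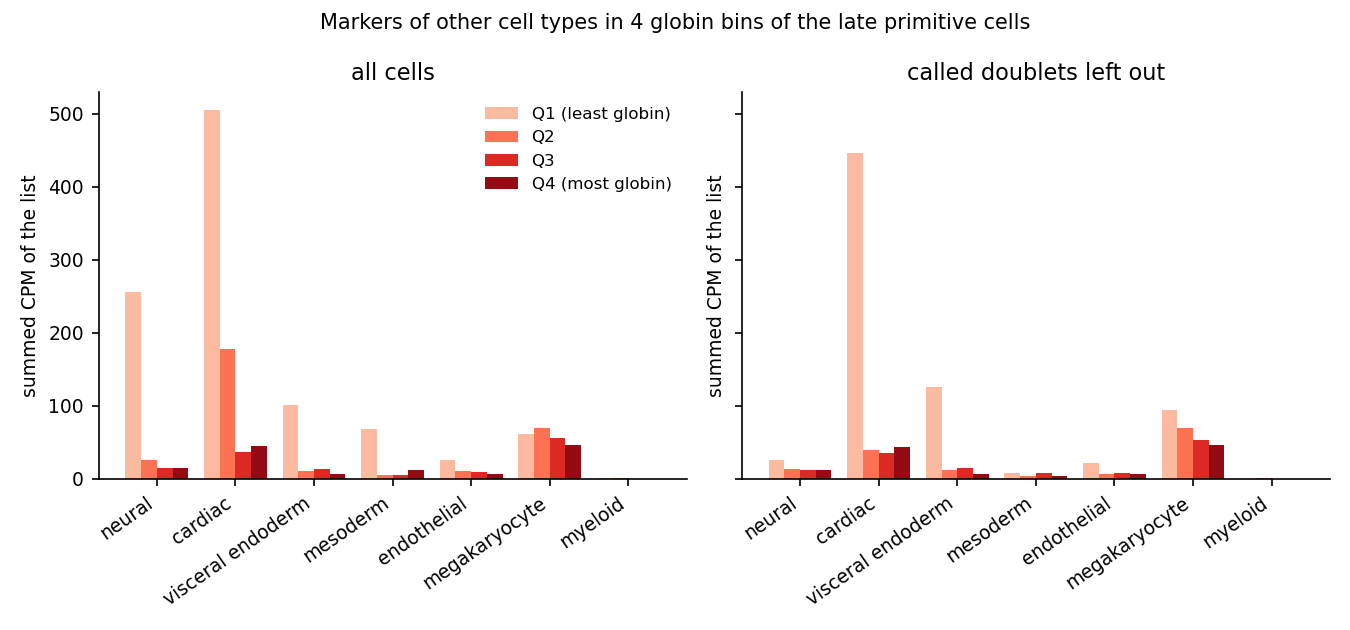
Bars give the summed CPM of the markers of 7 other cell types in the 4 globin bins of the late primitive cells, from least (pale) to most globin (dark), for all 866 cells (left) and the 757 cells not called doublets (right). Neural markers in Q1 stand at 256 CPM on the left and 25.7 CPM on the right, while cardiac markers stand at 505 and 447 CPM.

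Leaving out the doublets and ordering the 757 remaining cells anew (190, 189, 189 and 189 cells) left 14 of 5118 genes higher (0.274%) and 82 lower (1.6%). The 14 were all among the 26, and 54 of the 82 were among the 474. Cardiac markers still fell from 447 CPM in Q1 to 44.2 CPM in Q4, and visceral endoderm markers from 126 to 6.69 CPM, though 436 of the 465 visceral endoderm UMIs of Q1 lay in 1 cell. When cells with at least 3 UMIs of neural, cardiac, visceral endoderm and mesoderm markers together were also left out, 625 cells gave 9 of 4613 genes higher (0.195%) and 40 lower (0.867%). All 9 higher genes were among the 26, and 19 of the 40 lower genes were among the 474. Visceral endoderm markers then stood at 4.54 CPM in Q1 and 4.45 CPM in Q4. Cells with megakaryocyte markers stayed in this set, and at least 3 UMIs of them were found in 32 cells of Q1 and 18 of Q4. Outside the lists, the lowest ratios in the full set were those of Lef1 (log2 -5.83), Pyy (-5.54) and Irx3 (-5.45), without doublets those of the muscle genes Ttn (-4.25), Myl3 (-3.86) and Myl4 (-3.41), and in the smallest set those of Pgm1 (-1.44), Rnd2 (-1.41) and Gsta4 (-1.41). The values below are those without doublets unless another set is named.

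The 14 genes that were higher in Q4 held 4 globins, the membrane gene Slc4a1 and the erythroid nuclear gene Hemgn, and the other 8 came from various groups. Slc4a1 went from 72.8 CPM through 150 and 202 to 230 CPM (log2 1.66 between Q1 and Q4, interval 1.46 to 1.86). Hemgn went from 59.2 through 103 and 131 to 160 CPM (log2 1.43). Hba-a1 went from 2769 to 6665 CPM (log2 1.27) and Hba-a2 from 818 to 2243 CPM (log2 1.46), and both rose at each step. These 4 were also higher in the set of 625 cells. The rise of the adult alpha globins, which the order did not use, thus ran alongside that of the embryonic ones.

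Other genes of the 14 were Cox6b2, a subunit of cytochrome oxidase (36.0 against 13.5 CPM), Mgst3, a glutathione transferase (814 against 384 CPM), Hebp1, a heme-binding protein (328 against 160 CPM), and the kinase gene Sgk3 (log2 1.07). Egr1, an immediate early gene, stood at 26.5 against 6.49 CPM (log2 2.03). Over all 866 cells, doublets included, up to 14 of its 246 UMIs lay in a single cell. Cdkn1a (log2 2.67), Ccng1 (1.99) and Phlda3 (2.31), targets of p53, made up the rest beside Hba-x and Hbb-y, and did not rise step by step. In the set of 625 cells Mgst3 (log2 0.93), Hebp1 (0.84), Sgk3 (0.72) and Hba-x (0.91) lay below 2-fold and Phlda3 had too few UMIs to be measured. Cdkn1a was at 10.8, 14.8, 13.5 and 68.7 CPM in the 4 bins.

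Heme and iron genes differed by less than 2-fold without doublets. Alas2 went from 202 through 281 and 315 to 383 CPM (log2 0.92, interval 0.79 to 1.05), but over all 866 cells its log2 ratio was 1.14, which made it the 1 of 15 heme synthesis genes past 2-fold there. Slc25a37 went from 361 to 626 CPM (log2 0.80). None of 15 heme synthesis genes passed 2-fold (median 0.32 against -0.22 for all genes), none of 11 iron genes (median 0.07), and 1 of 23 membrane genes did, Slc4a1. Tfrc (log2 0.31), Epor (0.10, interval -0.13 to 0.33), Klf1 (0.08, interval -0.05 to 0.22) and Gata1 (-0.11, interval -0.30 to 0.07) differed by much less. Of 74 measured MURK genes, 8 were higher and none lower, with a median of 0.35, compared with 5 of 72 and a median of 0.29 in the set of 625 cells and with 12 of 78 over all 866. The 8 and the 12 held Hba-x and Hbb-y, and the 5 held Hbb-y, whose rise was set by the order of the cells.

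Genes that fell included Itga2b, a platelet integrin (41.9 to 18.8 CPM, log2 -1.16), and Slbp, which binds histone mRNA in S phase (44.1 to 21.1 CPM, log2 -1.06). Runx1, a factor of early blood progenitors, had a log2 ratio of -0.98, and of -1.05, past 2-fold, in the set of 625 cells. Of 38 S phase genes 1 was lower, with a median of -0.41, and none of 48 G2 and M phase genes passed (median -0.11). Cdkn1c, an inhibitor of the cell cycle, went from 28.9 to 8.75 CPM (log2 -1.73). It was at 562 CPM in the other host cells, and the part of such cells in its fall was not tested. It had too few UMIs to be measured in the set of 625 cells.

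**Figure D4:**
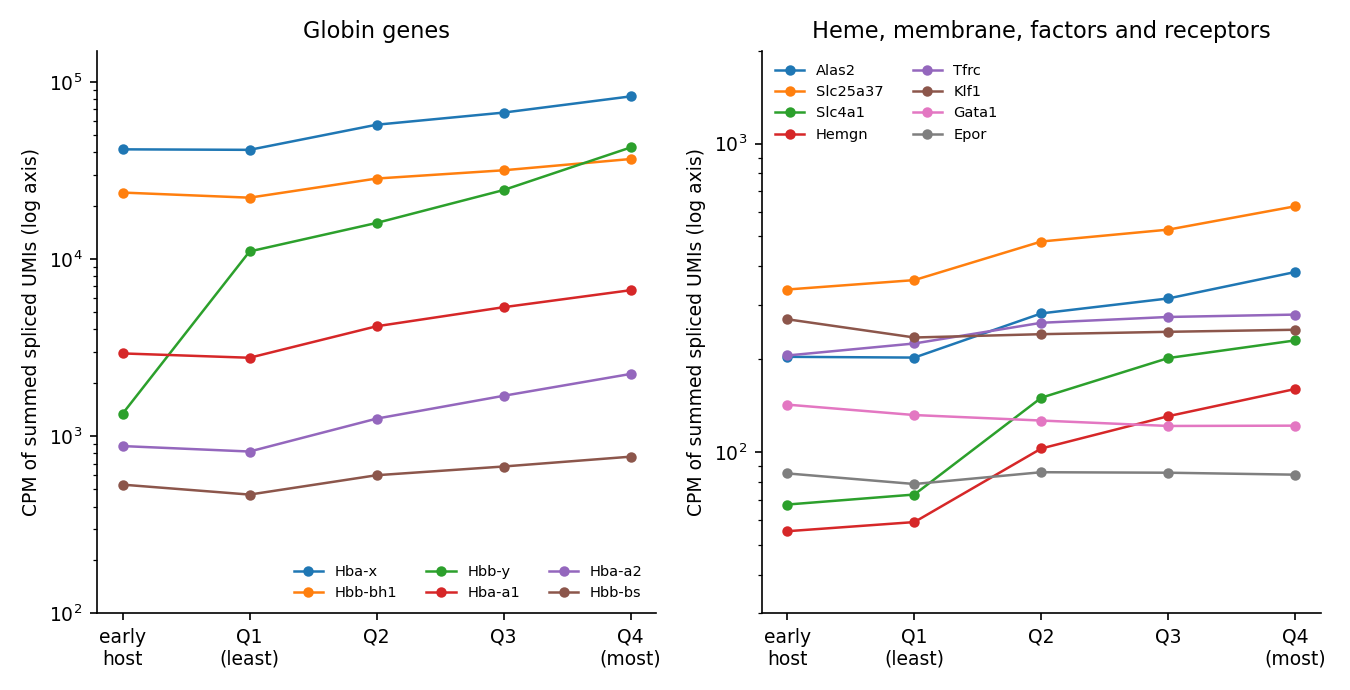
Points give the CPM (log axis) of globin genes (left) and of heme, membrane, factor and receptor genes (right) in early host erythroid cells and in the 4 bins of the late primitive cells, Q1 with least and Q4 with most embryonic globin, doublets left out. Slc4a1 and Hemgn climb from 72.8 to 230 CPM and from 59.2 to 160 CPM between Q1 and Q4, while Gata1 lies at 132 and 122 CPM.

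The ratio of the 2 embryonic beta-like globins is a description only, since both chose and ordered the cells. Over all 866 cells Hbb-bh1 exceeded Hbb-y 1.23 to 1, against 15.4 to 1 in the early cells, which the rule kept low in Hbb-y. By bin the ratio was 1.53, 1.81, 1.37 and 0.872, which was not a steady fall, and without doublets it was 2.01, 1.78, 1.29 and 0.861. Cells with more Hbb-y than Hbb-bh1 numbered 274 of 866 (31.6%), and they were 22.1%, 13.4%, 31.0% and 60.2% of the 4 bins. Since Hbb-y helped set this order, the cells were also ordered by Hba-a1 and Hba-a2, with ratios of 1.48, 1.32, 1.32 and 1.03. On unspliced UMIs, which come from newer transcripts, the ratio was 2.05 in Q1 (interval 1.40 to 3.04, 86 and 42 UMIs) and 1.15 in Q4 (interval 0.880 to 1.51, 122 and 106 UMIs), so those intervals overlapped. The summed alpha-like globins exceeded the beta-like ones 1.26 to 1 over all the cells, against 1.78 to 1 in the early cells.

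Unspliced UMIs were 9.91% of all UMIs in the late primitive cells, 10.6% in the early cells and 14.2% in the other host cells. With doublets kept, as in the values before, the share in Q1 and Q4 was 11.4% and 8.70%. Most of the doublets lay in Q1, and their part in this difference was not tested. Spliced UMIs of the embryonic globins, which ordered the bins, are part of the total behind these 2 values. Doublets were also kept for 2220 genes with at least 50 unspliced UMIs. The share in Q4 was higher for 32 (1.44%) and lower for 46 (2.07%), counted when the 2 exact binomial intervals did not meet. Without doublets 5 of 1907 genes were higher (0.262%) and 32 lower (1.68%), and the median difference over all genes was -0.37 percentage points. Of 27 MURK genes measured, 4 were lower and none higher in that set, and 21 of 27 had the lower share in Q4, as did 1072 of all 1907 genes. A share summed over a bin is a different measure from the slope on which that list was chosen. Mllt3, a chromatin reader of blood cells, had 21.3% unspliced UMIs in Q1 and 14.9% in Q4, while its spliced level went from 207 to 271 CPM. Hba-x had 0.204% and 0.166% and Hbb-bh1 0.123% and 0.0750%. Both are among the 4 lower MURK genes. Their spliced UMIs ordered the bins and also enter these shares, so their lower share in Q4 is in part set by the order. Cux1 (83.3% and 66.2%), Srpk2 (63.0% and 45.0%) and Tbc1d12 (76.6% and 57.1%) also had lower shares in Q4. With doublets kept, Slc2a3, a glucose transporter, had 22.4% in Q1 and 45.6% in Q4, and Itsn1 had 76.3% and 54.8%. Without doublets none of the 15 measured genes of the membrane list, which holds Slc2a3, had intervals apart.

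The third comparison set the late primitive cells against Gata1-null cells of the same embryos. The host cells expressed Gata1, which is targeted in the tdTom+ line, at 116 CPM. Counts per gene do not show whether a transcript carries the mutation, so the 39.7 CPM in tdTom+ cells that met the same rule does not check the label. Those cells numbered 100 of 8981 (1.11%), with a median of 3.76% embryonic globin and 21598 UMIs, and none had 3 or more Xist UMIs (the line was male). Of 7380 genes, 367 were at least 2-fold higher in the host cells (4.97%) and 336 lower (4.55%). With doublets left out of both groups, 304 of 6820 were higher (4.46%) and 342 lower (5.01%). The UMI filter summed both groups, and the 866 host cells held far more UMIs than the 100 tdTom+ cells. A gene high only in the tdTom+ cells thus needed a higher CPM to be measured than one high only in the host cells. Counts of higher and lower genes, here and in the lists below, are therefore not on an equal footing. Genotype, library and the origin of the cells (a cultured stem cell line or the host embryo) differ together between the fractions and cannot be told apart. Stage of maturation cannot be told apart from them either, since the rule set only lower bounds. All globins together made up 11.4% of spliced UMIs in the host cells and 4.62% in the tdTom+ cells.

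Although chosen by the same thresholds, the 2 sets of cells differed in globin. Hba-x stood at 57818 CPM in the host and 14100 CPM in the tdTom+ cells (log2 2.04), against 0.77 for Hbb-bh1 and 0.82 for Hbb-y. The alpha-like to beta-like ratio was 1.26 in the host and 0.606 in the tdTom+ cells, and Hba-x was the leading embryonic globin in 850 of 866 host cells and 27 of 100 tdTom+ cells. The ratio of Hbb-bh1 to Hbb-y was 1.23 and 1.28. Of the adult globins, Hbb-bs differed most, 584 against 15.9 CPM (log2 5.20), and the split from its copy Hbb-bt is again uncertain. Hbb-bs was 0.512% of globin UMIs in the host and 0.0344% in the tdTom+ cells. Hbb-bt differed much less, at 0.111% and 0.0812%, so the value for Hbb-bs alone does not stand for the pair.

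Of 15 heme synthesis genes, 9 were higher in the host cells and none lower (median log2 1.14, against -0.11 for all genes). Alas2 was at 276 against 43.2 CPM (log2 2.67, interval 2.38 to 2.98) and Slc25a37 at 470 against 52.5 CPM (log2 3.16). Of 23 membrane and skeleton genes, 13 were higher and 1 lower (median 1.70). Slc4a1 was at 155 against 43.2 CPM (log2 1.84, interval 1.55 to 2.15), the adducin gene Add2 at 63.8 against 2.65 CPM and Rhd, a Rhesus antigen, at 40.7 CPM against 1 UMI in all 100 cells. Ank1, which ties band 3 to the membrane skeleton, had 358 UMIs in the host cells and none in the tdTom+ cells, which puts it 15.0-fold higher or more when the 100 cells together are given 3 counts.

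Of 17 erythroid factors, 5 were higher and 2 lower in the host cells. Hemgn was at 109 against 2.65 CPM (log2 5.36, on 6 UMIs in the tdTom+ cells), Mllt3 at log2 2.79, Gata1 at 1.55 and Klf1 at 1.22, while Cbfa2t3 (-1.91) and Tal1 (-1.05, or -0.99 without doublets) were lower. Of 9 progenitor genes 7 were lower and 2 higher. Gata2, the GATA factor of progenitors, was at 1.72 against 104 CPM (log2 -5.92), Spi1, which encodes the myeloid factor PU.1, at log2 -6.46, Myb at -5.39, Kit at -4.31 and Runx1 at -2.38. The 2 higher ones were Itga2b (log2 2.47) and Csf2rb (2.76). Thinned to 3000 UMIs, Gata2 was seen in 0.350% of the host cells, 19% of the tdTom+ cells and 0.432% of the host neural cells.

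Of 85 MURK genes, 51 were higher in the host cells and 2 lower, with a median of 1.29. The 51 held Hba-x, which the rule used. The lower ones were Grap2 (log2 -1.48) and Htatip2 (-1.23), and the largest ratio after Hemgn was that of Slc25a21, a mitochondrial carrier (4.49). None of the 40 S phase and 51 G2 and M phase genes passed 2-fold, with medians of 0.05 and -0.08. Without doublets 1 of the 51, Psrc1, was higher (log2 1.62, on 7 UMIs in the tdTom+ cells). Markers of other cell types also differed, and 3 of the tdTom+ cells were called doublets. Megakaryocyte markers summed to 58.5 CPM in the host (65.5 CPM without doublets) and 18.5 CPM in the tdTom+ cells. At least 3 UMIs of them were found in 138 host cells and 2 tdTom+ cells. Myeloid markers summed to 0.941 CPM in the host and 60.4 CPM in the tdTom+ cells, where 15 of 100 cells had at least 3 UMIs of them, and Laptm5, the 1 measured marker, had a log2 ratio of -7.74. Cardiac markers summed to 201 and 473 CPM, and 3 of 5 were lower in the host. All 3 measured visceral endoderm and both measured neural markers were higher in the host, with sums of 35.3 against 1.76 CPM and of 83.6 against 15.4 CPM. Without doublets the neural sum of the host cells was 16.1 CPM and the 1 measured neural marker did not pass, 3 of 4 cardiac markers were higher in the host instead of lower, and 436 of the 591 visceral endoderm UMIs lay in 1 cell. The part of such cells in the values of Spi1 and the progenitor genes was not tested. Among the other lists the host cells had higher values for 2 and lower for 1 of 13 iron genes, for 4 and 0 of 21 metabolic enzymes, for 1 and 1 of 11 organelle clearance genes, for 0 and 2 of 8 signalling genes, for 3 and 0 of 7 cycle inhibitors, for 2 and 0 of 7 import genes and for 1 and 0 of 7 stress genes. Without doublets, 10 of 15 heme synthesis genes and 14 of 23 membrane genes were higher, with 1 membrane gene lower. Of 17 factors 5 were then higher and 1 lower, of 7 progenitor genes 2 higher and 5 lower, and of 83 MURK genes 52 higher and 2 lower. Of 12 iron genes 2 were higher and none lower, and of 10 organelle clearance genes 1 was higher and none lower, since the lower ones, Hmox1 and Ulk1, had too few UMIs to be measured.

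Against a wider set, the 1263 tdTom+ cells with at least 0.5% embryonic globin, 261 of 9165 genes were higher in the host cells (2.85%) and 710 lower (7.75%), and without doublets 266 of 8537 were higher (3.12%) and 885 lower (10.4%). With doublets kept, 216 higher and 257 lower genes were in common with the set chosen by the same rule. There, 10 of 16 heme synthesis genes, 14 of 23 membrane genes and 55 of 87 MURK genes were higher, with 1 membrane and 1 MURK gene lower, and 8 of 13 progenitor genes were lower and 2 higher. Without doublets the lists gave 10 of 16 heme synthesis genes, 13 of 23 membrane genes and 55 of 86 MURK genes higher and 8 of 11 progenitor genes lower. The MURK list holds the embryonic globins, which chose the cells of both sets. All 4 measured myeloid markers were lower in the host cells. Outside the lists, the largest ratios were those of Prss50 (log2 6.83) and Slc5a2 (5.11), and the smallest those of Pdyn (-8.59) and Slc32a1 (-8.45), which are known from neurons and stood at 21.3 and 116 CPM in the tdTom+ cells. Mrap, a melanocortin receptor partner, was at 189 CPM in the host and 11.6 CPM in these tdTom+ cells. This contrast also sets mature cells against cells of all stages, which the rule brings about.

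**Figure D5:**
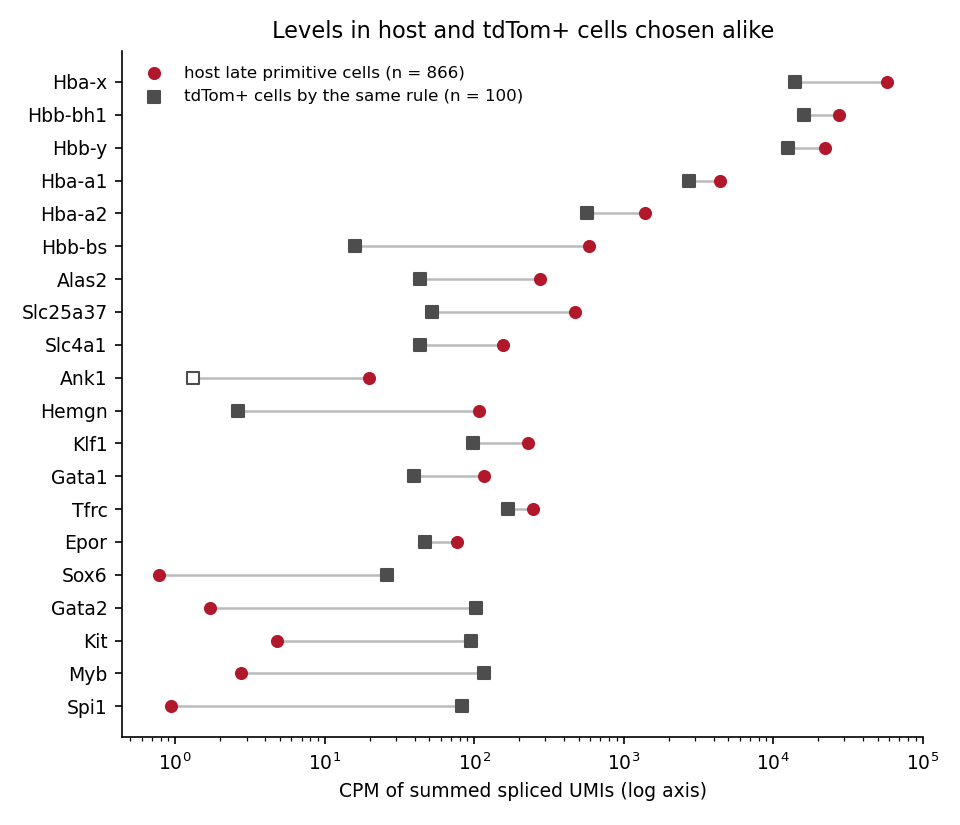
Levels (CPM of summed spliced UMIs, log axis) of 20 genes in the 866 host late primitive cells (red circles) and the 100 tdTom+ cells that met the same rule (grey squares), joined by lines. The open square marks Ank1, which had no UMI in the tdTom+ cells, at its floor of 3 counts. Globin, heme and membrane genes lie to the right in the host cells, and Sox6, Gata2, Kit, Myb and Spi1 to the left.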

How the data were processed

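Per the methods and the submitters' processing notes, the authors mapped 10x reads with Cell Ranger 3.0.2 to mm10, removed cells of low quality, identified doublets and derived spliced and unspliced counts with velocyto. The deposited count tables hold whole UMI counts per gene and cell, not normalized, for 18233 cells and 29453 genes, and the deposited percent column gives the mitochondrial share of each cell. Cells were selected by the globin rule, which along with the gene lists was chosen with earlier results of these data known. Counts were summed over cells and scaled to CPM. Named genes were examples from 23 lists (the highest, the lowest and known effectors), the 10 largest changes in each direction outside the lists among genes with at least 100 UMIs, and the 10 largest unspliced changes, from which some are given. Genes of the tdTom+ contrasts and the p53 targets were added after their values were seen. Genes were described by log2 ratios with conditional exact 95% intervals, and with 1 library per fraction no model was fitted. The intervals were tested on simulated independent counts, which cannot show how they hold where UMIs cluster in single cells. The study kept fewer cells of both fractions, those that passed its filters and were given a cell type, and neither that choice nor its doublet calls were used here. Doublets were called anew per library with Scrublet (scanpy 1.11.5, seed 0). Python 3.11.15 and scipy 1.17.1 were used. Alternatives changed the thresholds, scaling, UMI filter, cell order and doublets. The intervals treat UMIs as independent molecules. No column belonged to another series.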

Additional observations from a re-analysis of the deposited data

Results flagged for a closer look

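In the tdTom+ library, which the definition of the cells left out, 100 cells met the same globin thresholds (1.11% of 8981, 95% exact binomial interval 0.907 to 1.35%), against 866 host cells (9.36%). They were singled out as a signal in data outside the definition. Their median Hbb-y was 1.09% of UMIs, against 1.72% in the host cells.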

How the results depend on the processing

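No paired analysis was possible because each fraction had 1 library. For the same reason no replicate could be left out. The number of cells was 633 to 881 under 5 other thresholds or counts, against 866. Embryonic globin was 11.1% of UMIs in cells with at least 5%, 11.6% without doublets, 10.9% thinned to 3000 UMIs and 10.9% as a mean over cells. Against early cells, higher and lower genes were 73 and 386 at 20 UMIs or more, and 4 and 10 at 300 or more. They were 6 and 23 without doublets and other-type cells, those with at least 3 UMIs of neural, cardiac, visceral endoderm and mesoderm markers together. Of these, 5 and 9 were in common with the main count. Lower genes numbered 133 for cells with at least 5% globin and 154 after free RNA, 4.23% of a cell, was subtracted. Between Q4 and Q1, 47 were higher on CPM outside globin genes, which raised the median of all genes by 0.17, with 366 lower. Higher and lower genes were 67 and 1760 at 20 UMIs, 15 and 141 at 300, 14 and 82 without doublets, and 9 and 40 without other-type cells also, and 9 were higher when the cells were split into 2 bins. Against tdTom+ cells by the same rule 336 were lower, and 342 with doublets left out. The ratio of Hbb-bh1 to Hbb-y in Q1 was 1.48 ordered by Hba-a1 and Hba-a2, 2.01 without doublets, 2.05 on unspliced UMIs and 2.02 without other-type cells also, and in Q4 1.03, 0.861, 1.15 and 0.836. Higher unspliced shares numbered 5 without doublets and 1 without other-type cells also, with 24 lower there. The causes were not tested, apart from the filters, which change the genes measured. Of 1185 values under alternatives, 319 were scored as moved, 866 as the same and none as reversed past 2-fold, and 1157 kept their sign. For named genes, moved meant outside the counting interval of the reported value. Counts of higher MURK genes, scored by a fold limit, entered too. The UMI filters leave a gene's value unchanged, so those alternatives could not move it, and genes below a filter were not scored. The tally thus overstates how stable the values were. That tally covers the contrasts with early cells, of Q4 with Q1, and with the 1263 tdTom+ globin cells. The same-rule contrast entered only as an alternative to the last. Its own changes without doublets, such as those of the cardiac markers, were not scored. The log2 ratio of Gata1 to early cells stayed between -0.18 and -0.06. The sets without other-type cells and the same-rule set without doublets were chosen after seeing the data. With 1 library and 6 pooled embryos, variation between embryos was not measured.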

Other observations

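A small set of the late primitive cells carried transcripts of p53 targets. These genes and the threshold were chosen after their values were seen, and doublets were left out. Of 757 cells, 32 (4.23%) had at least 3 UMIs of Cdkn1a, which encodes the cell cycle inhibitor p21, with up to 34 in a single cell, and 699 had none. In the 32 cells Ccng1 was at 262 CPM against 13.2 CPM in the 699 (19.9-fold, interval 16.0 to 24.9), and 29 of the 32 had a UMI of it. Phlda3, an inhibitor of Akt, was at 150 against 2.15 CPM, Trp53inp1 at 42.3 against 0.429 CPM, Mdm2, which degrades p53, at 201 against 37.9 CPM, and the pro-apoptotic gene Bax at 762 against 313 CPM. Trp53 itself was at 137 and 118 CPM and Mki67 at 361 and 384 CPM. The 32 cells fell 3, 3, 5 and 21 to Q1, Q2, Q3 and Q4, the bins from least to most globin, or 11.1% of Q4. The embryonic globins, which the definition and the order of the cells used, were at 39635 against 22989 CPM for Hbb-y (1.72-fold), and were 1.37-fold higher for Hbb-bh1 and 1.25-fold for Hba-x. At least 3 Cdkn1a UMIs were also found in 16 of 491 early host cells (3.26%) and in 362 of 7486 other host cells (4.84%), where Ccng1 was 18.7-fold and 3.51-fold higher than in cells with none. In those early cells, which the rule kept low in Hbb-y, Hbb-y was at 1131 against 1357 CPM (0.833-fold). Hbb-bh1 was 1.14-fold and Hba-x 0.967-fold there. None of 97 tdTom+ cells chosen by the same rule had 3, and a limit of 3 cells of the 97 allows a share of up to 3.09%. Any Cdkn1a UMI was seen in 7 of 100 such cells and in 8.55% of the late primitive cells, doublets included.

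Grb10, an imprinted growth inhibitor, was at 159 CPM in the late primitive cells and 15.9 CPM in the tdTom+ cells chosen by the same rule (log2 3.32). In neural cells of the 2 libraries it was at 286 and 8.04 CPM, so the difference was not limited to red cells. Cdkn1c, also imprinted, was at 63.1 CPM in the late primitive cells and 13.4 CPM with doublets left out, against 1 UMI in the tdTom+ cells, and at 198 and 2.65 CPM in neural cells. It was at 562 CPM in the other host cells, and the part of free RNA, estimated at 4.23% of a cell, in the remaining value was not tested. Prss50, a protease-like gene known from testis, was at 42.6 CPM in the late primitive cells, 39.7 CPM in the early cells, 1.84 CPM in host neural cells and 0.374 CPM in the 1263 tdTom+ globin cells.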
